A study of Rattus norvegicus with 20 samples.

Results

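The left ventricle of rats held under immobilization stress was compared with that of control rats, gene by gene. The 10 left ventricle libraries were taken by their labels, out of 20 libraries in all, and the other 10 came from the brain of the same rats. They fell into a control group of 5 rats and a stress cardiomyopathy (SCM) group of 5 rats. All were male Sprague-Dawley rats, an outbred stock, of 250 to 300 g at selection. The SCM rats were immobilized for 6 hours with the stress lasting 7 days, and the control rats had no immobilization stated. The rats of both groups had been anesthetized when they were allocated at random. The anesthetic and the age were not stated. The sources do not say how long after the last session, or at what hour, the hearts were taken, and they give no cardiac function for these rats.

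The left ventricle is built mainly of cardiac muscle cells, which take up most of its volume, with endothelial cells, fibroblasts, smooth muscle cells and immune cells between them. Immobilization is a standard way to raise catecholamines and glucocorticoids in the rat, and in people SCM is a transient failure of the ventricle that often follows emotional or physical stress. In bulk tissue, fewer cells of a type and less RNA per cell cannot be told apart.

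The table lists 24160 features, called genes here, 23760 of them under Ensembl identifiers and 400 under XLOC identifiers. It does not pair these with gene names, and the reference table used here held 0 of the identifiers. Genes are therefore described in groups set by their level, and 4 are given by identifier. For the same reason cardiac muscle markers, markers of other cell types and the candidate genes of the study were not looked up, so the tissue label was compared only with the brain libraries. Counts were scaled between libraries by TMM (trimmed mean of M values), which sets 1 factor per library from its typical genes, and levels are in CPM, the count as a share of the scaled library total, with no correction for gene length. Among the genes with a mean of at least 500 counts per left ventricle library, 575 were at least 8-fold higher in the left ventricle than in the brain over all rats, and 28 were at least 8-fold higher in the brain. The limit of 500 counts leaves out genes that are low in the left ventricle. The unequal numbers therefore follow in part from this limit and are no check of the tissue label.

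A gene was called when its p-value, from edgeR's quasi-likelihood fit to the 10 left ventricle libraries and adjusted by the Benjamini-Hochberg method over all genes tested, was under 0.05. Of 13954 genes tested, 727 were called, or 5.21%, with 2.33% higher and 2.88% lower in SCM. The 6428 genes with a mean of at least 500 counts held 95.8% of all counts, and they are called well-counted from here on. Of the well-counted genes 474 were called, or 7.37%. In SCM 258 of them were higher, or 4.01% of the well-counted genes, and 216 were lower, or 3.36%. In limma-voom, another test for counts, the numbers were 253 and 199 with TMM and 189 and 233 with quantile normalization, which gives every library the same distribution of levels. DESeq2 called 994, with 609 higher and 385 lower, and a fit of all 20 libraries 906. The median log2 fold change was 0.56 for the higher genes and -0.59 for the lower genes. The median over all well-counted genes was 0.04. Past a log2 fold change of 1 in size there were 38 higher and 31 lower well-counted genes, and past 2 there were 4 and 5. The study's limits were an adjusted p-value under 0.05 together with a log2 fold change beyond 2 in size. The study applied them in both the brain and the left ventricle. In the left ventricle alone they were met by 9 well-counted genes, or 0.14%, and by 32 genes in all, or 0.229% of those tested. Most of the changes in well-counted genes were therefore smaller than the study's limit. The 32 genes in all became 18 to 64 when 1 rat was left out. The number of well-counted genes called was sensitive to single rats. It was 210 without control rat 1, 205 without control rat 3, 286 without SCM rat 1, 235 without SCM rat 2, 275 without SCM rat 4 and 215 without SCM rat 5. Without control rats 2 and 4 it was 384 and 397. It rose to 654 without control rat 5 and to 614 without SCM rat 3.

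**Figure D1:**
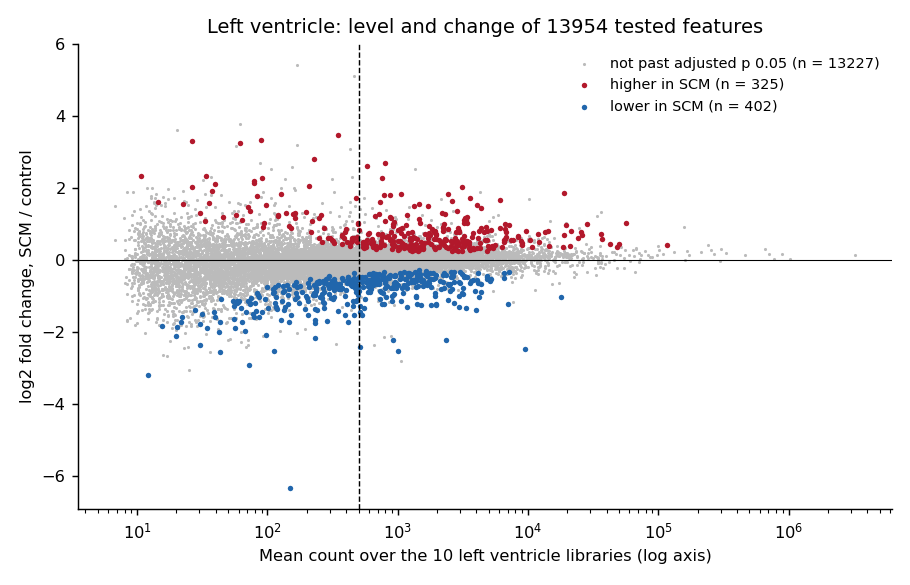
Each point is 1 of the 13954 tested genes, at its mean count over the 10 left ventricle libraries (horizontal log axis) and its log2 fold change of SCM against control (vertical axis); red genes were called higher, blue genes lower and grey genes were not called. The dashed line marks a mean of 500 counts, to the right of which lie 258 of the 325 higher genes and 216 of the 402 lower genes.

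Higher and lower genes were not spread evenly over the range of levels. Among genes with a mean of 100 to 500 counts, 42 were higher and 140 lower. Between 500 and 2000 counts 126 were higher and 158 lower, and between 2000 and 10000 counts 108 were higher and 57 lower. At 10000 counts and over, 24 were higher and 1 was lower. The share of genes called rose from 2.11% below 100 counts to 9.36% between 2000 and 10000 counts, and was 8.06% above that. Over the same levels the median standard error of the log2 fold change over the genes tested fell from 0.41 to 0.10 and was then 0.11, so the low genes were called with larger changes. The called genes below 100 counts had a median log2 fold change of 1.56 in size, against 0.56 between 2000 and 10000 counts.

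The whole distribution moved with level, not the called genes alone. The median log2 fold change over the genes tested was -0.13 below 100 counts, -0.07 from 100 to 500, 0.02 from 500 to 2000, 0.07 from 2000 to 10000 and 0.13 at 10000 and over. At the top level 77.7% of genes had a positive log2 fold change, against 39.6% at the bottom. The 310 genes at 10000 counts and over had, in each SCM rat, a median log2 difference from the control mean of 0.04 to 0.24, with the lowest in SCM rat 3 and the highest in SCM rat 2. In the control rats it was -0.02 to 0.03, so the groups did not overlap in this median. RLE, which like TMM sets 1 factor per library, kept the direction of the calls at every level in edgeR, with 26 higher and 44 lower below 100 counts and 24 and 1 at 10000 and over. Quantile normalization, added after seeing the data, puts the medians near 0 at every level by its construction, so it shows what depends on the scaling but not which scaling is right. It was fitted in limma-voom and is set beside TMM in the same tool. Below 100 counts limma-voom called 17 higher and 32 lower with TMM and 31 and 20 with quantile normalization. Between 2000 and 10000 counts it called 107 and 52 with TMM and 66 and 79 with quantile normalization, and at 10000 and over 23 and 1 against 13 and 8. The balance of calls thus turned below 100 counts and between 2000 and 10000 counts under this scaling. Whether the shift with level lies in the tissue or in the libraries was not tested.

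**Figure D2:**
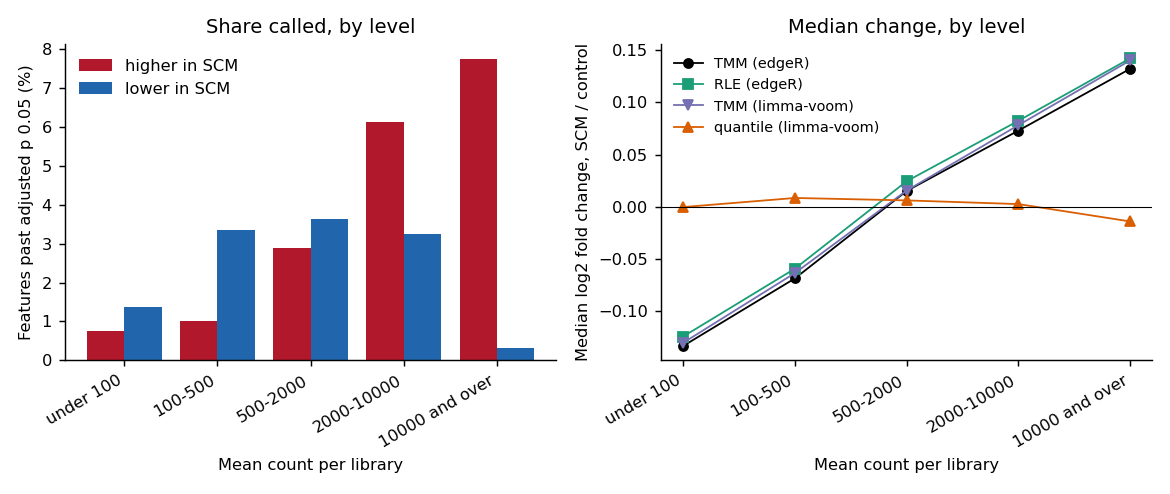
The left panel gives the percentage of tested genes called higher (red) or lower (blue) in SCM in 5 classes of mean count per library. The right panel gives the median log2 fold change over all genes of each class after TMM and RLE in edgeR and after TMM and quantile normalization in limma-voom, where TMM in edgeR rises from -0.13 to 0.13 and quantile normalization, which sets equal distributions, runs from -0.0139 to 0.00853.

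The 500 genes of highest mean CPM in the left ventricle, called abundant here, held 62.9% of its counts, and each had a mean of at least 6733 counts. Of these 7.6% were called, 35 higher in SCM, or 7.0%, and 3 lower, or 0.6%. The numbers were 35 and 3 with RLE in edgeR, and in limma-voom 34 and 3 with TMM and 22 and 12 with quantile normalization. The median log2 fold change was 0.63 over the 35 higher genes, from 0.35 to 1.87. The 3 lower genes had log2 fold changes from -0.34 to -2.47. Called or not, 53 abundant genes, or 10.6%, had every SCM rat above every control rat, and 7, or 1.4%, had every SCM rat below, beside 5.93% and 4.39% of the well-counted genes. The 35 higher genes together took 2.07% to 2.29% of all counts in the control rats and 2.89% to 3.56% in the SCM rats. Of the 35, 23 were among the 196 abundant genes at least 8-fold higher in the left ventricle than in the brain. This class of 196 had 1 lower gene. The number of abundant genes called was 69 without control rat 5, with 54 higher and 15 lower. It was 18 without control rat 1, 18 without control rat 3, 25 without SCM rat 1, 22 without SCM rat 2 and 19 without SCM rat 5.

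By tissue level, of the 575 well-counted genes at least 8-fold higher in the left ventricle than in the brain 13.7% were called, with 47 higher and 32 lower, against 7.37% of all well-counted genes. They were also better counted, with a median mean count of 3401 against 1140 in the genes within 2-fold of the brain, where 6.57% were called with 137 higher and 100 lower. Of the genes 2- to 8-fold higher in the left ventricle, 6.98% were called. Of the 528 genes 2- to 8-fold higher in the brain 35 were called, of which 12 were higher and 23 were lower. The 28 genes at least 8-fold higher in the brain had the highest share, 17.9%, from 5 genes, of which 1 was higher and 4 were lower. The difference between these shares was not tested.

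ENSRNOG00000008534 had the largest increase among well-counted genes whose groups did not overlap. Its level in control rats 1 to 5 was 8.09, 12.2, 6.20, 9.51 and 1.52 CPM. In SCM rats 1 to 5 it was 63.2, 50.5, 50.3, 43.6 and 36.6 CPM. The lowest SCM rat lay above the highest control rat, and control rat 5 had the lowest level of all with 51 counts. The gene reached a mean of 500 counts only through the SCM rats, since its control libraries held 51 to 353 counts and its SCM libraries 927 to 1683. The mean was 7.50 ± 3.99 CPM (SD, n = 5) in control and 48.8 ± 9.82 CPM (SD, n = 5) in SCM, a 6.53-fold increase. On the log2 scale the increase was 2.71 ± 0.39 (SE, edgeR adjusted p = 0.0047). It lay between 2.44 and 2.95 when 1 rat was left out. The brain of the same rats had the gene at 45.2 ± 2.82 CPM (SD, n = 5) in control and 37.1 ± 3.33 CPM (SD, n = 5) in SCM, a log2 fold change of -0.29 that was not called (edgeR adjusted p = 0.155).

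ENSRNOG00000003357 had the largest decrease by the same rule. It was at 336, 374, 647, 333 and 821 CPM in control rats 1 to 5. In SCM rats 1 to 5 it was at 84.2, 72.6, 145, 83.6 and 67.4 CPM. All SCM rats lay below all control rats, and the control rats were spread more widely than the SCM rats. The mean fell from 502 ± 221 CPM (SD, n = 5) to 90.6 ± 31.5 CPM (SD, n = 5). This log2 fold change of -2.47 ± 0.30 (SE, edgeR adjusted p = 0.00282) ran from -2.70 to -2.22 when 1 rat was left out. This gene ranked at place 348 by level in the left ventricle, so it also belonged to the 3 abundant genes that were lower. The brain value, -1.09 ± 0.50 (SE, edgeR adjusted p = 0.347), was not called, at 22.8 ± 20.5 CPM (SD, n = 5) in control and 10.8 ± 6.26 CPM (SD, n = 5) in SCM. The interaction of tissue and stress did not reach the threshold (adjusted p = 0.0633, edgeR).

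ENSRNOG00000004726 had the smallest p-value among the abundant genes that were higher. Its level in control rats 1 to 5 was 331, 370, 360, 344 and 350 CPM. In SCM rats 1 to 5 it was 625, 676, 577, 534 and 642 CPM. The control rats lay close together, and every SCM rat was well above them. The mean was 351 ± 14.9 CPM (SD, n = 5) in control and 611 ± 55.7 CPM (SD, n = 5) in SCM, a 1.74-fold increase. On the log2 scale this was 0.80 ± 0.08 (SE, edgeR adjusted p = 0.00179), and 0.66 after quantile normalization, where it was still called. Its level in the brain was 27.3 ± 2.26 CPM (SD, n = 5) in control and 27.7 ± 3.45 CPM (SD, n = 5) in SCM.

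ENSRNOG00000012840 was next among the abundant genes that were lower. It was at 548, 546, 639, 730 and 1400 CPM in control rats 1 to 5. In SCM rats 1 to 5 it was at 361, 356, 380, 450 and 345 CPM. The groups did not overlap, but control rat 5 was far above the other control rats. The mean was 772 ± 357 CPM (SD, n = 5) in control and 378 ± 42.1 CPM (SD, n = 5) in SCM. The log2 fold change of -1.03 ± 0.23 (SE, edgeR adjusted p = 0.0303) was -0.70 ± 0.11 without control rat 5 (adjusted p = 0.00601). The adjusted p-value was 0.052 without control rat 3, 0.0645 without SCM rat 1, 0.0723 without SCM rat 2 and 0.0768 without SCM rat 5, so the call was lost in 4 of the 10 edgeR fits that left out 1 rat, while the log2 fold change there ran from -1.089 to -0.9955. In the brain the gene was at 1234 ± 163 CPM (SD, n = 5) in control and 1207 ± 160 CPM (SD, n = 5) in SCM.

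**Figure D3:**
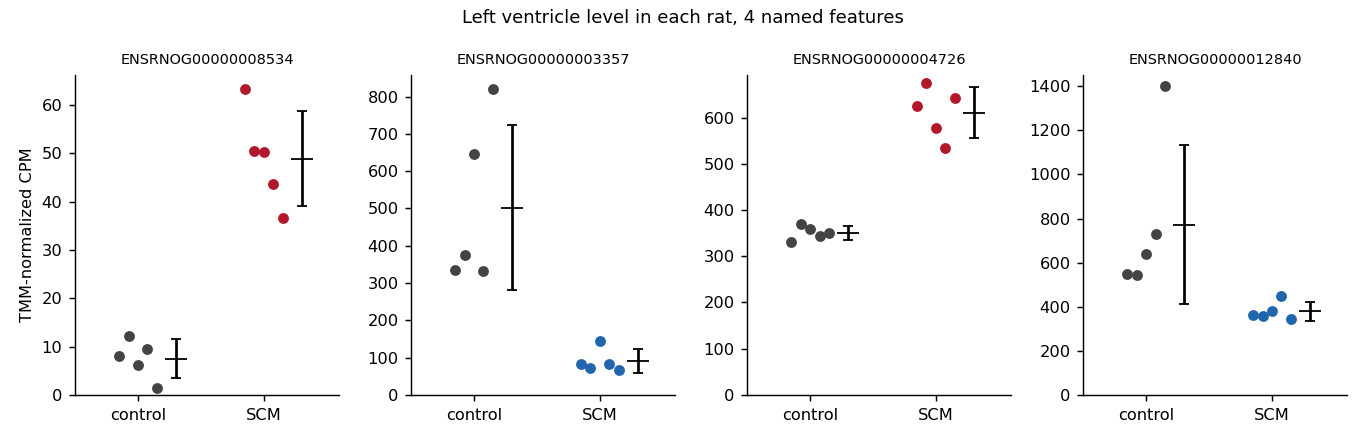
Points are the TMM-normalized CPM of each left ventricle library, with 5 control rats and 5 SCM rats for each of the 4 genes, and bars are the mean and SD. In all 4 genes the SCM rats lie on 1 side of the control rats, and control rat 5 stands apart at 1400 CPM in ENSRNOG00000012840.

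Beyond these genes, the 15 largest increases among well-counted genes with no overlap had log2 fold changes from 1.52 to 2.71 and mean levels of 20.7 to 689 CPM. The 15 largest decreases ran from -1.21 to -2.47, at mean levels of 16.1 to 296 CPM. Both sets spanned moderate and high levels, and 4 genes of each set were at least 8-fold higher in the left ventricle than in the brain. The 10 abundant genes with the smallest p-values among those higher had log2 fold changes from 0.44 to 0.99 and levels of 284 to 1660 CPM.

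The consistency of the changes was described rat by rat. Over all well-counted genes 10.3% had no overlap between the 5 SCM and the 5 control rats, with SCM above in 381 genes, or 5.93%, and below in 282, or 4.39%. Over all genes tested the share was 7.6%, with 3.62% above and 3.98% below. Of the 258 higher genes 210 had no overlap, and a further 44 had 4 of the 5 SCM rats above every control rat. Of the 216 lower genes 182 had no overlap and 27 had 4 SCM rats below every control rat. The genes were called on these same libraries, so the counts describe them and are no further evidence of a change. As a share of all counts, the 258 higher genes held 3.36% to 3.71% in the control rats and 4.70% to 5.63% in the SCM rats. The 216 lower genes held 1.41% to 1.78% and 0.838% to 1.04% in the same order. Of the 168 XLOC loci tested 3 were called higher and 3 lower, beside 5.21% called over all genes tested.

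The SCM rats differed in the size of the response. In the higher genes the median log2 difference from the control mean was 0.66, 0.56, 0.37, 0.52 and 0.61 in SCM rats 1 to 5. In the lower genes it was -0.65, -0.57, -0.45, -0.54 and -0.70 in the same order. SCM rat 3 was nearest to the controls in both directions. It was the lowest of the SCM rats in 53.9% of the higher genes and the highest in 46.8% of the lower genes, while SCM rat 1 was the highest in 44.2% of the higher genes. SCM rat 3 lay above every control rat in 86.4% of the higher genes, against 96.5% to 99.6% in the other SCM rats. It lay below every control rat in 89.8% of the lower genes, against 97.2% to 98.1%. The genes were called with all these rats included, so these shares follow in part from the calling. The control rats had medians between -0.05 and 0.06 in both groups of genes, after the control mean was subtracted. In the first principal component of the well-counted genes, which held 35.8% of the variance, the control rats lay between -16.1 and -7.23 and the SCM rats between 2.63 and 21.0, with SCM rat 3 lowest of the SCM rats. The second component, with 22.1%, set control rat 5 apart at 25.7, against -15.8 to 4.60 in the other libraries.

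Rats that had no part in calling a gene were also compared. In turn each pair of 1 SCM rat and 1 control rat was left out, genes were called in the remaining 8 libraries, and the 2 left-out rats were compared in those genes. Over the 25 pairs the number of well-counted genes called ran from 16 to 920, with a median of 204. In the called genes the left-out SCM rat lay on the called side of the left-out control rat in 65.3% to 100% of genes, with a median of 93.6%. Over all well-counted genes, called or not, the left-out difference had the sign of the fit in 55.0% to 74.2%, with a median of 67.8%. The median difference between the left-out rats was 0.60 in the genes called higher, where the fit without them gave 0.83, and -0.57 in the genes called lower, where the fit gave -0.76 (medians over the 25 pairs, log2). Pairs with SCM rat 3 had the smallest differences, with a median of 0.20 in higher genes and -0.31 in lower genes, where the fit gave 0.66 and -0.68. Their sets of genes were also larger, with a median of 469 called, against 142 to 204 for the other SCM rats. Pairs with control rat 5 had medians of 0.47 and -0.39, in larger sets of genes (a median of 436 called) with smaller fitted changes (0.62 and -0.62). The 25 pairs share rats, so they are not independent.

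**Figure D4:**
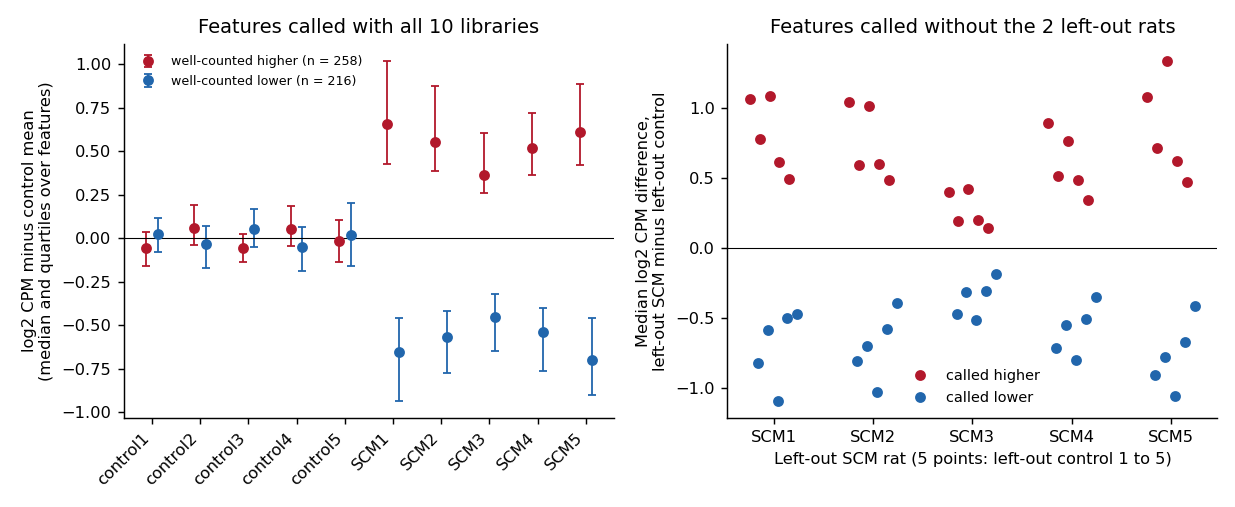
The left panel gives, for each library, the median (point) and quartiles (bars) over the 258 higher and 216 lower well-counted genes of log2 CPM minus the control mean. The right panel gives the median log2 CPM difference between a left-out SCM rat and each left-out control rat in genes called without both, which is positive in genes called higher and negative in genes called lower for all 25 pairs and smallest for SCM rat 3.

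The called genes that did not depend on any single rat were counted. Of the 474 well-counted genes called, 174 were called in the same direction in all 10 fits that left out 1 rat, with 90 higher and 84 lower. The median log2 fold change was 0.80 in these higher genes and -0.77 in the lower genes. Past a log2 fold change of 1 in size there were 25 higher and 22 lower. Among the 174 were 14 abundant genes that were higher and 1 that was lower. No gene of the 474 changed sign in any of the 10 fits (0 of 474 in each). Each fit takes all its libraries from the fit that chose the genes, so a change of sign was hardly possible.

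The spread between rats was described for each group. In the 5954 well-counted genes that were not called, the median SD of log2 CPM was 0.17 over the control rats and 0.14 over the SCM rats, and 39.8% of these genes had the larger SD in SCM. In the higher genes the SD was larger in SCM in 60.5%, with medians of 0.17 in control and 0.19 in SCM. In the lower genes it was larger in SCM in 41.2%, with medians of 0.18 in control and 0.17 in SCM. These shares were not tested.

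The brain of the same rats showed where the change differed between tissues. Of the 258 higher genes 253 were tested in the brain, where their median log2 fold change was 0.10 and 4 were higher and 1 was lower by the same edgeR test. Of the 216 lower genes 215 were tested in the brain, with a median of -0.10 and 1 higher and 1 lower. Over all 6365 well-counted genes tested in the brain the median was 0.03, with 10 higher and 9 lower. The interaction of tissue and stress, fitted in edgeR to the left ventricle and brain libraries together with a term for each rat, had an adjusted p-value under 0.05 for 96 of the 6428 well-counted genes, or 1.49%, and for 124 of 13943 genes in all, or 0.889%. Of the well-counted genes 83 were among the 474 genes called in the left ventricle, which share the left ventricle libraries with this test. The effect was more positive in the left ventricle in 48 of the 83, all of them higher genes, and more negative in 35, all of them lower genes. In 50 of the 83, which the interaction selects for unlike changes, the brain value had the opposite sign. Over all called genes tested in the brain it had the same sign in 181 of 253 higher and 150 of 215 lower genes, beside 3828 of 6365 over all well-counted genes. With an unadjusted p-value under 0.05 in the brain, 71 higher and 44 lower genes had the same sign, and 12 and 9 had the opposite sign, beside 783 and 276 over all well-counted genes. Of the 468 called genes tested in both tissues, 452 had the smaller change in the brain, and these genes were chosen for their change in the left ventricle. Among the genes with full values above, the interaction was 3.12 on the log2 scale (adjusted p = 0.0129, edgeR) for ENSRNOG00000008534 and 0.76 (adjusted p = 0.013, edgeR) for ENSRNOG00000004726. It did not reach the threshold for ENSRNOG00000012840 (-0.92, adjusted p = 0.0998, edgeR). The number of 83 depended strongly on single rats. It was 18 without control rat 1, 27 without control rat 2 and 7 without control rat 3, and it was 23, 23, 52 and 21 without SCM rats 1, 2, 4 and 5. Without control rat 4 it was 60, without control rat 5 97 and without SCM rat 3 85.

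**Figure D5:**
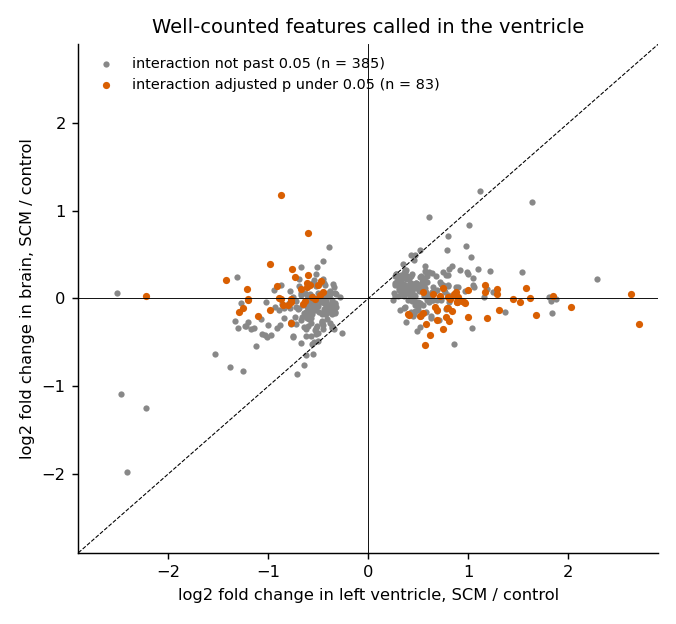
Each point is 1 of the 468 well-counted genes called in the left ventricle and also tested in the brain, at its log2 fold change of SCM against control in the left ventricle (horizontal axis) and in the brain (vertical axis), and the dashed line marks equal changes. The 83 genes with an interaction adjusted p-value under 0.05 are orange, and 452 points lie closer to 0 in the brain than in the left ventricle.

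Depth and the makeup of the libraries were compared between the groups with exact two-sided permutation tests of 8 measures, whose smallest possible p-value is 0.00794. The total count was 27547756 to 36251990 in control and 25390349 to 33087185 in SCM (exact p = 0.294, adjusted over the 8 measures 0.336). Genes at least 8-fold higher in the brain took 0.315% to 0.366% of counts in control and 0.276% to 0.321% in SCM (exact p = 0.0159, adjusted 0.0635). Genes with too few counts to be tested took 0.0524% to 0.0697% in control and 0.0411% to 0.0492% in SCM (exact p = 0.00794, adjusted 0.0635). A measure that alone reached the smallest p-value would still have an adjusted value of 0.0635, so with 8 measures a value above the threshold says little. The 500 abundant genes took 60.6% to 64.1% in control and 62.8% to 65.6% in SCM (exact p = 0.0635, adjusted 0.143). Genes at least 8-fold higher in the left ventricle took 22.7% to 25.3% in control and 24.6% to 27.7% in SCM (exact p = 0.0714, adjusted 0.143). From 16705 to 17249 genes had a count in control and from 16485 to 16918 in SCM (exact p = 0.0952, adjusted 0.152). The share of the 10 most abundant genes (exact p = 0.825, adjusted 0.825) and of XLOC loci (exact p = 0.206, adjusted 0.275) were the remaining measures. The part of any of these in the shift with level described above was not tested.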

How the data were processed

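Left ventricle RNA-seq of 5 control and 5 SCM rats was analysed, grouped by label, with the brain libraries of the same rats for the interaction. The deposited values are raw counts, neither normalized nor pooled by the authors. The submitters' processing notes name HISAT2, StringTie and SAMtools and the build mRatBN7.2; the counting program, annotation release and strand setting are not given in the sources used here, so reads of overlapping or near-identical genes may be split in unknown ways. Left ventricle counts were tested in edgeR 4.0.16 (R 4.3.3) after TMM and filterByExpr (minimum count 10, minimum total 15), adjusted over all tested genes. The study's text gives its limits but not its model for these counts. For log2 CPM 0.5 was added, and a prior count of 2 for left-out rats. The fit was tested on simulated counts, where small changes were recovered far less often than large ones. The changed genes there were drawn from all tested genes, so the outcome does not describe well-counted genes alone. Each pair of libraries within a group differed by 50.1 to 352 times the variance of counting alone, so no duplicate was found. No interval was needed for single shares, and the number of rats limits the precision.

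Alternatives were RLE, DESeq2 1.42.0, limma-voom (limma 3.58.1), other filters, a fit of all 20 libraries, a replicate block and leaving out rats; quantile normalization in limma-voom, limma-voom by level and the interaction without the rat block were added after seeing the data. The groups of genes and the rules were chosen with earlier results of these data known, and the tissue classes after the table was seen. The rule for named genes took large changes among well-counted genes with no overlap (the 15 largest in each direction), abundant genes by p-value (10 in each direction) and members of fixed gene lists, all with a symbol. Since identifiers are not paired with symbols, the symbol was not required, the first gene of each of the first 2 parts in each direction is given by identifier, a gene already taken was passed over, and the lists of pathways, cell types and candidate genes were not analysed here, nor were sequences. Replicate numbers pair different rats: the deviations of same-numbered libraries had correlations from -0.14 to 0.22 across genes.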

Additional observations from a re-analysis of the deposited data

Results flagged for a closer look

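In 5 of 24 sets of 5 values, 1 value lay far from the rest, and chance gives about 1 in 20, or 1.2. The sets share libraries and some are of genes chosen for their change, so they are not independent and 1.2 is only a rough guide. ENSRNOG00000012840 was at 1400 CPM in control rat 5 and at 546 to 730 CPM in the other control rats. ENSRNOG00000003357 was at 145 CPM in SCM rat 3 and at 67.4 to 84.2 CPM in the other SCM rats. In control rat 4 the 10 top genes took 33.0% of the library, against 27.5% to 28.4% in the other control rats, and the library held 0.315% in genes at least 8-fold higher in the brain, against 0.352% to 0.366%. Control rat 1 had 0.268% of its counts in XLOC loci, against 0.160% to 0.169%. The edgeR interaction test gave a more positive change in the left ventricle than in the brain for ENSRNOG00000008534, by 3.12 on the log2 scale, and for ENSRNOG00000004726, by 0.76. Causes were not tested.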

How the results depend on the processing

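The count of genes called was 727 in all, 474 well-counted and 38 abundant. In that order it was 1644, 994 and 88 with DESeq2, 1789, 906 and 65 with all 20 libraries in 1 fit, and 314, 224 and 17 with the replicate number as a block. Past the study's limits 32 genes became 19 with limma-voom, 53 without a filter (19 higher and 34 lower), 19 with at least 10 counts in every library, 166 with all 20 libraries (65 higher and 101 lower) and 18 with the block. Quantile normalization in limma-voom kept the counts within 1.5 times of the edgeR counts. Beside TMM in limma-voom it moved the balance past these limits from 11 higher and 8 lower to 17 and 5 (17 and 15 in edgeR), and that of well-counted genes from 253 and 199 to 189 and 233. Same-numbered rats are different animals, 2 of 5 control libraries correlated best with the SCM library of their own number, and the block is given only for completeness. Leaving out 1 rat gave 287 to 997 genes in all, 205 to 654 well-counted, 18 to 69 abundant, 18 to 64 past the study's limits and 7 to 97 with an interaction among the called well-counted genes. That last number was 83, and 137 without the rat block. Fits without 1 rat have fewer samples; other causes were not tested. The 4 genes given by identifier kept their direction in all 72 fits, and in 5, all of ENSRNOG00000012840, the call was lost: with the block (adjusted p = 0.0619, edgeR) and in the 4 fits named above. The genes were chosen for their change in these same libraries, so the kept direction says little. Of the 474 genes, 149 were called in the same direction under every alternative. Below 100 counts the median standard error was 0.41, and 67 of the 71 called genes had a log2 fold change past 1 in size. Smaller changes at this level were seldom called, whether present or not.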
